A study of Mus musculus with 9 samples.

Results

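The transcripts described here encode 10 glycosyltransferases that build the sugar coat of the gut epithelium: the fucosyltransferases Fut2 and Fut4, the sialyltransferases St3gal4, St3gal6 and St6gal1, the chain-extending enzymes B3gnt3, B3gnt7 and B4galt1, and the mucin O-glycan enzymes C1galt1 and Gcnt3. They were followed through every probe set that the array annotation assigned to exactly 1 of these symbols, which gave 21 of 45101 probe sets for 10 of 18193 named genes, and 18 of the 21 passed the filter on low values. The arrays measured RNA from distal small intestine of mice colonized for 10 days with the gut bacterium Bacteroides thetaiotaomicron, each sample pooling several stretches of the gut. There were 3 groups of 3 arrays. BP tissue had the title BP, an abbreviation left unexplained there, and the same source label as Rag1 tissue. The Rag1 group is named after a recombinase gene without which mice make no mature B or T cells. The third group was wild type B6 tissue. The labels name no Rag1 allele and no age or sex, and nothing in them tells separate mice from repeat arrays, so p-values here reflect spread among these samples only.

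Glycosyltransferases sit in the Golgi and add sugars one at a time to proteins and lipids on their way to the cell surface or into mucus. Fucose and sialic acid are usually the last sugars added, and they cap chains of alternating galactose and N-acetylglucosamine. In the mouse ileum, epithelial fucosylation by Fut2 is known to be switched on by gut bacteria, Bacteroides thetaiotaomicron among them, which can in turn use the fucose.

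The BP arrays stood apart from the others in spread, and BP replicates 1 and 3 also in a control. On the log2 scale, arrays of 1 group differed by a median SD per probe set of 0.44 in BP tissue, 0.21 in Rag1 tissue and 0.23 in B6 tissue. Beta-actin controls at both transcript ends gave a 3' over 5' ratio, a measure that goes up as RNA breaks down, of 14.2, 2.43 and 20.2 on BP replicates 1, 2 and 3, between 1.53 and 1.77 for Rag1 tissue, and 3.25, 1.76 and 4.17 on B6 replicates 1, 2 and 3. Xist, the RNA that silences an X chromosome in females, read 36.0, 624 and 1735 on BP replicates 1, 2 and 3, 5.84 to 24.1 in Rag1 tissue and 1086 to 1539 in B6 tissue, so sex-linked signal differed between the groups too. The 9 epithelial markers were all tested, and their summed intensity was 40702 to 45704 in BP tissue, 49026 to 55167 in Rag1 tissue and 50546 to 52589 in B6 tissue. Igha, the IgA heavy chain, read 54.5 to 111 in BP tissue, 83.4 to 93.4 in Rag1 tissue and 2583 to 6389 in B6 tissue. The Rag1 probe set itself was too dim for the test, at 2.87 to 22.8, 1.37 to 2.69 and 3.54 to 17.6 on the arrays of BP, Rag1 and B6 tissue.

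The comparison of BP with Rag1 tissue sets side by side the groups that share a source label. Of the 10 enzymes, 3 fell on the BP arrays: the chain-extending enzymes B3gnt3 and B3gnt7 and the sialyltransferase St3gal4. None rose, and at an unadjusted p under 0.05 the count was 4, with B4galt1 added, where 19.1% of all genes passed at that level. Each of the 3 was reduced to a fraction of its Rag1 signal, between 2.66-fold and 3.77-fold lower on the log2(value + 16) scale. B4galt1, another chain-extending enzyme, had a difference of like size that did not pass, and both fucosyltransferases, St3gal6, St6gal1, Gcnt3 and C1galt1 did not pass either. By the same rule (limma, Benjamini-Hochberg adjusted p under 0.05, each gene by its brightest tested probe set), 2.17% of all 13570 genes were lower and 1.1% higher in BP tissue. In tissue made of many cell types, fewer cells of a type and less RNA per cell cannot be told apart.

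B3gnt3 adds N-acetylglucosamine to galactose and so lengthens O-glycans. Its probe set read 75.2, 182 and 70.5 on the BP arrays, against 505, 427 and 425 on the Rag1 arrays. The B6 arrays read 306, 633 and 272. All BP arrays lay below all others, while the Rag1 and B6 ranges overlapped. The log2 difference between BP and Rag1 tissue was -1.91 ± 0.31 (SE, n = 3 per group; limma adjusted p = 0.0131), a 3.77-fold lower signal in BP tissue.

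St3gal4 places sialic acid on the terminal galactose of a chain and takes part in making sialylated Lewis antigens. It read 892, 1739 and 592 on the BP arrays, against 3824, 3996 and 3848 on the Rag1 arrays. On the B6 arrays it read 2532, 3540 and 2361. The groups formed 3 separate ranges, with Rag1 highest and BP lowest, and the Rag1 arrays hardly differed among themselves (3889 ± 93.1, SD, n = 3). The difference between BP and Rag1 tissue was -1.89 ± 0.25 on the log2 scale (limma adjusted p = 0.00759).

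B3gnt7, which extends chains of alternating galactose and N-acetylglucosamine, had another order. It read 132, 77.1 and 79.9 on the BP arrays, against 289, 334 and 253 on the Rag1 arrays. The B6 arrays read 82.0, 116 and 62.5, overlapping the BP range. The difference between BP and Rag1 tissue was -1.41 ± 0.32 on the log2 scale (limma adjusted p = 0.0378), and that between BP and B6 tissue was 0.06 ± 0.32, with a 95% interval from -0.65 to 0.76.

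B4galt1 joins galactose to N-acetylglucosamine, the step that makes the chain unit on which the sialyl- and fucosyltransferases act. It read 1176, 314 and 956 on the BP arrays, against 2302, 3737 and 1832 on the Rag1 arrays. The B6 arrays read 1554, 1662 and 1172. The Rag1 arrays lay above all others, and BP and B6 overlapped. Its difference between BP and Rag1 tissue was -1.74 ± 0.48 on the log2 scale and did not pass (limma adjusted p = 0.0707). BP replicate 2 and Rag1 replicate 2 lay farthest apart, and without BP replicate 2 the value was -1.03 with a limma adjusted p of 0.00961. That fit kept only the BP arrays with actin ratios of 14.2 and 20.2. It called 5275 probe sets, against 1027 with all arrays.

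**Figure D1:**
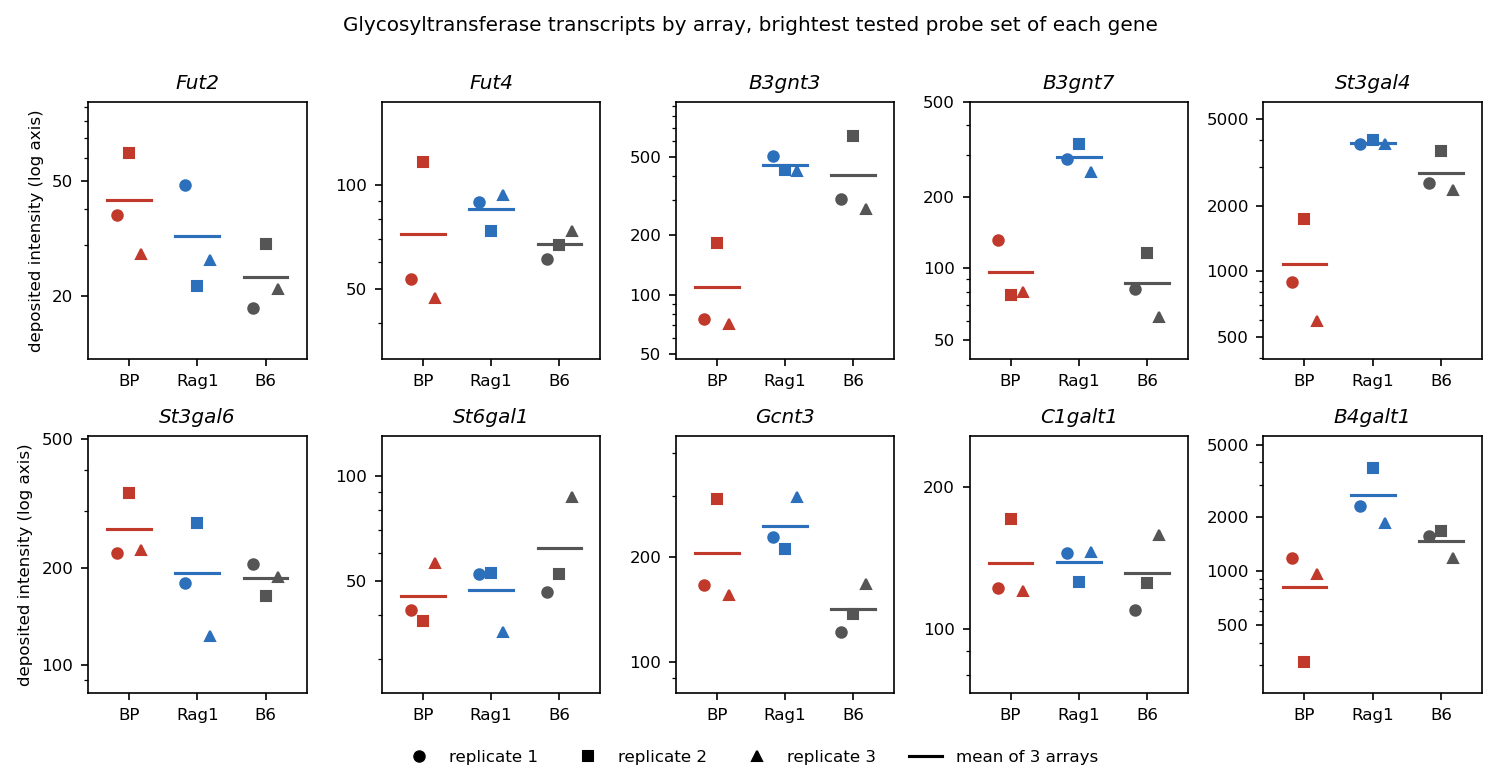
Deposited intensity (log axis) of the brightest tested probe set of each of the 10 glycosyltransferase genes on the 3 BP, 3 Rag1 and 3 B6 arrays, with symbols for replicate numbers and a bar at the mean of 3 arrays. The BP points of B3gnt3 and St3gal4 lie below all others, B3gnt7 is high on the Rag1 arrays alone, and the groups of Fut2 and St6gal1 overlap.

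All 3 BP arrays lay below all 3 Rag1 arrays in 4 of the 10 genes, B3gnt3, B3gnt7, St3gal4 and B4galt1, where 13.1% of all genes did. C1galt1 was the 1 gene with all BP arrays above all Rag1 arrays on the normalized scale, where 10.0% of all genes were, though its difference was 0.11 ± 0.20. In 3 of the genes, B3gnt7, St3gal4 and B4galt1, all 3 Rag1 arrays lay above all 6 arrays of BP and B6 tissue, where 3.56% of all genes did. The median log2 difference of the 10 genes between BP and Rag1 tissue was -0.17, against -0.016 over all genes.

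The 250 bases before the RefSeq start of B3gnt3, St3gal4, B3gnt7 and B4galt1 (build GRCm38.p6) are shown. In these 4 genes, all BP arrays lay below all Rag1 arrays. B3gnt3 is at chr8:71701801-71702050, minus strand, St3gal4 at chr9:35116865-35117114, minus strand, B3gnt7 at chr1:86302971-86303220, plus strand, and B4galt1 at chr4:40853985-40854234, minus strand. Each is written 5' to 3' on the gene's strand, and capitals mark a match to 1 of 3 motifs searched on both strands: CACGTG (an E-box), TTCNNNGAA (bound by STAT factors) and the NF-kappaB consensus.
B3gnt3: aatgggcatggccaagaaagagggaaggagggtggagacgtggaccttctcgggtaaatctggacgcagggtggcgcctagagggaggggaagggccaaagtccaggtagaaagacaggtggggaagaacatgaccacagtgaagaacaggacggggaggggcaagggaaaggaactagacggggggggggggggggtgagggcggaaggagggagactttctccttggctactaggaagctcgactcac
St3gal4: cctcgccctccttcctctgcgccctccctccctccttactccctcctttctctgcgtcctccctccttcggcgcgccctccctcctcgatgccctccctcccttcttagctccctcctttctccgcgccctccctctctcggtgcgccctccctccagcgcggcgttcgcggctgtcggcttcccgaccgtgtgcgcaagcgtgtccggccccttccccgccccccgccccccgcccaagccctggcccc
B3gnt7: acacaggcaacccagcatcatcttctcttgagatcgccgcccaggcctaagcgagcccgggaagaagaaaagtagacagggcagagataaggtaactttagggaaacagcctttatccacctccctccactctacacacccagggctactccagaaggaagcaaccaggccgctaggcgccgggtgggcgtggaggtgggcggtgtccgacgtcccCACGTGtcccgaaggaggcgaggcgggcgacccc
B4galt1: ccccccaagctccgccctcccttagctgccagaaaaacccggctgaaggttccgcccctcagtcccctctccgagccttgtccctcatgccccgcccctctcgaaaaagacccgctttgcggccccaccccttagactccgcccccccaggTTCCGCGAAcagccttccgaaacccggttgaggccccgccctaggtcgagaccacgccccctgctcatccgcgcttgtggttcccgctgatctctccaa
B3gnt7 held the E-box, 34 to 29 bases before its start, and B4galt1 the STAT motif, 99 to 91 bases before its start. The B3gnt3 and St3gal4 windows held none of the 3 motifs, and no motif was common to the 4 genes. Of 32851 RefSeq windows of this length, 6.02% held the E-box, 7.02% the STAT motif and 7.25% the NF-kappaB motif. The GC content was 60% for B3gnt3, 72.8% for St3gal4, 61.6% for B3gnt7 and 66.4% for B4galt1, with a median of 52.4% over all windows. Windows were matched by symbol for 8 of the 10 genes (all but Fut2 and Gcnt3), and among the others 1 of the St3gal6 windows held the NF-kappaB motif.

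The deposited intensities of B3gnt3 and St3gal4 moved with the actin ratio as well as with the group. Both were lowest on BP replicates 1 and 3, the arrays with ratios of 14.2 and 20.2. Within B6 tissue, both were higher on replicate 2, with a ratio of 1.76, than on replicates 1 and 3. On BP replicate 2, with a ratio of 2.43, B3gnt3 read 182 and St3gal4 1739, below every Rag1 and B6 array. BP replicate 2 was also the brightest array, with a median of 48.0, against 30.2 and 32.4 on BP replicates 1 and 3. After normalization, which evens out array brightness, the log2 SD in BP tissue was 0.39 for B3gnt3 and 0.56 for St3gal4. The part of array brightness in the deposited values was not tested. With BP and B6 replicates 1 and 3 left out, which leaves 1 array in each of those groups, the differences from Rag1 tissue were -1.47 for B3gnt3 and -1.32 for St3gal4. With the log2 of the actin ratio as a covariate over all 9 arrays, they were -1.10 and -1.06 (limma adjusted p of 0.0331 and 0.00348). The covariate fit called 4191 probe sets between BP and Rag1 tissue, against 1027 without the covariate. The part of RNA breakdown in the B3gnt3 and St3gal4 values was not tested.

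B3gnt7 and B4galt1 went with the ratio in B6 tissue and not in BP tissue. On B6 replicates 2, 1 and 3, in order of rising ratio, B3gnt7 read 116, 82.0 and 62.5 and B4galt1 read 1662, 1554 and 1172. In BP tissue, B3gnt7 read 77.1 on BP replicate 2, the lowest BP value. Its difference from Rag1 tissue was -1.86 with the log2 ratio as a covariate (limma adjusted p = 0.0109). B4galt1 was lowest on BP replicate 2 too, and its difference from Rag1 tissue was -3.13 with the covariate (adjusted p = 0.00182). On BP replicate 1, whose Xist signal of 36.0 was below those of the other BP arrays, B3gnt7 (132) and B4galt1 (1176) were at their highest BP values, and B3gnt3 (75.2) and St3gal4 (892) lay between the other BP arrays. All 4 values were below the Rag1 range, and the parts of RNA breakdown and of sex-linked differences in these results were not tested.

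**Figure D2:**
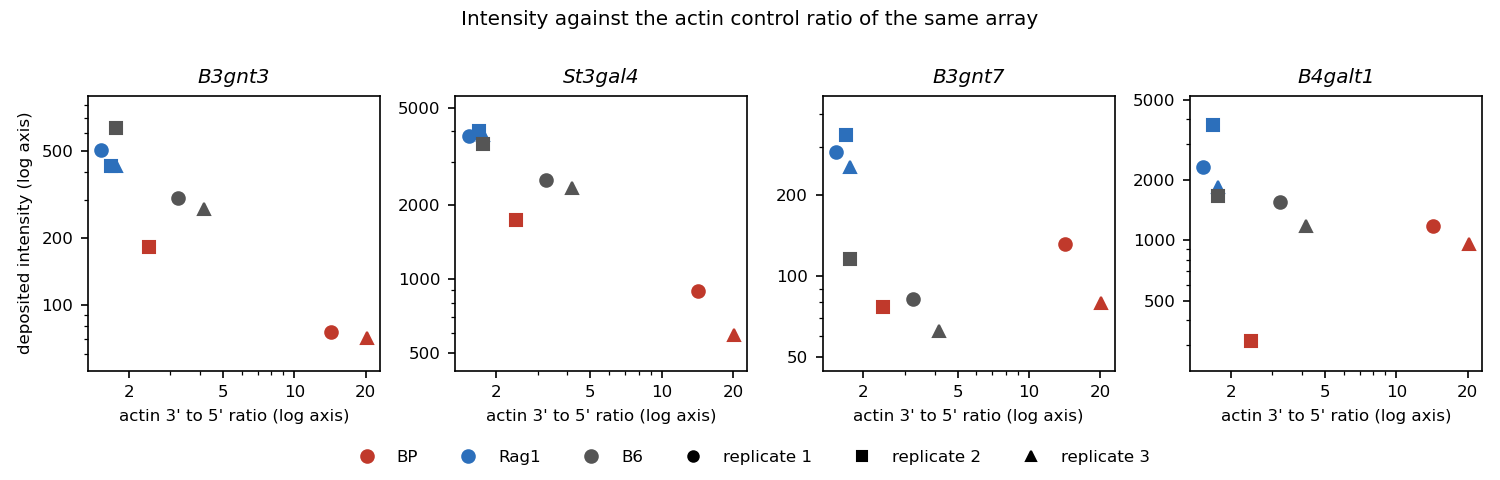
Deposited intensity of B3gnt3, St3gal4, B3gnt7 and B4galt1 (log axis) against the actin 3' to 5' ratio of the same array (log axis), coloured by group with symbols for replicate numbers. B3gnt3 and St3gal4 are lowest on the BP arrays with ratios of 14.2 and 20.2, while B3gnt7 and B4galt1 are lowest among the BP arrays on replicate 2, at a ratio of 2.43. The values are not normalized between arrays, and BP replicate 2 had the highest array median.

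The calls depended on the Rag1 arrays. Without Rag1 replicate 1 or without Rag1 replicate 2, 0 of the 10 genes passed between BP and Rag1 tissue, while the count over all probe sets went down to 18 and 23, against 1027 with all arrays. The differences themselves stayed near their size, at -1.85 and -1.90 for B3gnt3 (adjusted p of 0.0812 and 0.0725) and at -1.91 and -1.85 for St3gal4 (adjusted p of 0.0524 and 0.0598). B3gnt7 also lost its call without BP replicate 3 (adjusted p = 0.0877), without Rag1 replicate 3 (0.0892), without B6 replicate 1 (0.0687) and without B6 replicate 3 (0.0602), and when only the BP and Rag1 arrays were fitted (0.0982).

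The comparison of Rag1 with B6 tissue sets tissue without adaptive lymphocytes beside wild type tissue. Xist was low in every Rag1 sample (5.84 to 24.1) and high in every B6 sample (1086 to 1539). Sex-linked signal thus changed together with the group, so this comparison cannot tell them apart. The part of sex-linked differences in its results was not tested. None of the 10 enzymes passed here (limma), where 0.317% of all genes were lower and 0.0737% higher in Rag1 tissue; at an unadjusted p under 0.05 there were 2, B3gnt7 and Gcnt3, where 5.80% of all genes passed. B3gnt7 had the largest difference of the 10, 289, 334 and 253 on the Rag1 arrays against 82.0, 116 and 62.5 on the B6 arrays. That is 1.47 ± 0.32 on the log2 scale, a 2.77-fold higher signal in Rag1 tissue, with an adjusted p of 0.149. Fitted with these 2 groups alone, so without the wider BP spread, the same difference had an adjusted p of 0.00382, and without BP replicate 2 it was 0.00521. Across the alternatives it was called in 5 of 21.

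Gcnt3 makes branches on mucin-type O-glycans. Its brightest probe set read 228, 211 and 298 on the Rag1 arrays, against 122, 137 and 167 on the B6 arrays, and the BP arrays read 167, 295 and 156. The Rag1 arrays lay above the B6 arrays, with a difference of 0.60 ± 0.21 (limma adjusted p = 0.663). In deposited intensity, BP replicate 2 was near the Rag1 values, while the other BP arrays were near the B6 values. After normalization all BP arrays lay above all B6 arrays and overlapped the Rag1 arrays. The log2 means were then 7.79 in BP tissue, 7.94 in Rag1 tissue and 7.34 in B6 tissue. The other probe sets of Gcnt3 gave 0.07 ± 0.32 and 0.02 ± 0.33, so the separation was seen in 1 of its 3 probe sets.

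St3gal4 differed by 0.47 ± 0.25 between Rag1 and B6 tissue (limma adjusted p = 0.979) and B4galt1 by 0.76 ± 0.48 (adjusted p = 0.999), although in both all Rag1 arrays were above all B6 arrays. With B3gnt7 and Gcnt3, that made 4 of 10 genes with separate ranges and Rag1 on top, where 8.43% of all genes were. St6gal1 was the 1 gene with Rag1 arrays all below the B6 arrays on the normalized scale, where 10.5% of all genes were. The median difference of the 10 genes was 0.17, against -0.020 over all genes.

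Between BP and B6 tissue, 2 of the 10 enzymes fell, B3gnt3 and St3gal4, where 0.545% of all genes were lower and 0.0368% higher in BP tissue. B3gnt3 differed by -1.73 ± 0.31 on the log2 scale (limma adjusted p = 0.0324) and St3gal4 by -1.42 ± 0.25 (adjusted p = 0.0294). These were the same BP arrays as in the comparison with Rag1 tissue, so the results are not independent. All BP arrays lay below all B6 arrays in these 2 genes, where 11.8% of all genes did, and above them in St3gal6 and Gcnt3 on the normalized scale, where 7.34% did, though neither passed (0.47 ± 0.29 and 0.44 ± 0.21). The median of the 10 genes was -0.024, against -0.041 over all genes. Of the 9 fits that leave out 1 array, the calls of both genes held only without BP replicate 2. Without each of the other 8 arrays in turn the adjusted p lay between 0.0529 and 0.133 for B3gnt3 and between 0.0630 and 0.180 for St3gal4. Fitting only these 2 groups gave 0.180 and 0.161.

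**Figure D3:**
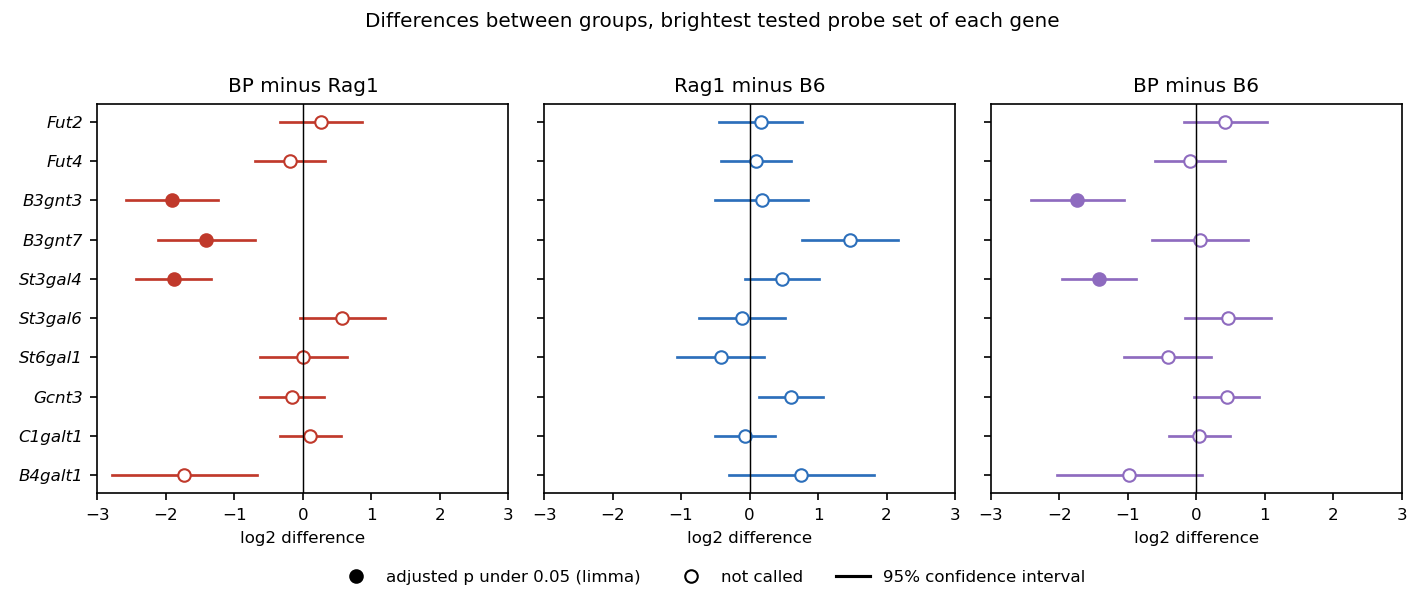
Log2 differences on the normalized log2(value + 16) scale for the brightest tested probe set of each gene in 3 comparisons, with 95% confidence intervals. Filled points, with an adjusted p under 0.05 in limma, are B3gnt3, B3gnt7 and St3gal4 for BP minus Rag1 tissue and B3gnt3 and St3gal4 for BP minus B6 tissue; Rag1 minus B6 has none.

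Neither fucosyltransferase passed in any comparison. Fut2, which makes the H antigen of the gut surface, had signals near the array medians of 29.4 to 48.0. It read 38.0, 62.5 and 27.9 on the BP arrays, against 48.3, 21.6 and 26.5 on the Rag1 arrays. B6 tissue gave 18.1, 30.2 and 21.1. The ranges overlapped, and the differences were 0.26 ± 0.28 between BP and Rag1 tissue (95% interval -0.34 to 0.87) and 0.16 ± 0.28 between Rag1 and B6 tissue (-0.44 to 0.77). The other Fut2 probe set ran from 14.4 to 44.1 in BP tissue, 12.1 to 55.3 in Rag1 tissue and 19.7 to 37.8 in B6 tissue, and its difference between BP and Rag1 tissue had the opposite sign, -0.34 ± 0.35. Intervals of this width do not show that Fut2 was alike in the groups. With 3 arrays per group, differences within those bounds remain compatible with the values.

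Fut4, which makes the Lewis x antigen, read 53.7, 117 and 47.1 on the BP arrays, against 89.5, 74.0 and 93.5 on the Rag1 arrays. B6 tissue gave 61.4, 67.1 and 74.0. BP replicate 2 was above all other arrays and the other BP arrays below all others, so the BP range enclosed the rest. The Rag1 arrays lay just above the B6 arrays in deposited intensity, and the groups overlapped after normalization. The difference between BP and Rag1 tissue was -0.19 ± 0.23 and that between Rag1 and B6 tissue 0.09 ± 0.23. Its dimmer probe set, which was not tested, read 8.16 to 38.7 over all arrays.

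St3gal6, a sialyltransferase that acts on the same terminal galactose as St3gal4, did not share its pattern. Its brightest probe set read 222, 341 and 227 on the BP arrays, against 180, 274 and 123 on the Rag1 arrays. In B6 tissue it read 206, 164 and 187. The difference between BP and Rag1 tissue was 0.58 ± 0.29 (95% interval -0.05 to 1.2; limma adjusted p = 0.290), and those of the next tested probe sets were 0.22 ± 0.27 and -0.15 ± 0.33. A probe set too dim to test read 11.0, 20.9 and 32.5 on the BP arrays and at most 5.33 on the Rag1 arrays and 10.5 on the B6 arrays. With no filter its adjusted p between BP and Rag1 tissue was 0.177.

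St6gal1 attaches sialic acid in another linkage, chiefly on N-glycans, and is also used by B cells. It read 41.3, 38.4 and 56.3 on the BP arrays, against 52.5, 52.9 and 35.8 on the Rag1 arrays. In B6 tissue it read 46.7, 52.5 and 86.9. The difference between Rag1 and B6 tissue was -0.42 ± 0.29 (limma adjusted p = 0.999). The 6 tested B and plasma cell markers had a summed intensity of 198 to 262 in BP tissue, 186 to 201 in Rag1 tissue and 3250 to 9439 in B6 tissue, and their part in the St6gal1 value was not tested. Its other probe set read 17.9, 101 and 52.4 on the BP arrays, 33.6 to 40.3 in Rag1 tissue and 29.4 to 38.1 in B6 tissue.

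C1galt1 is the T-synthase, which adds galactose to the root sugar of mucin-type O-glycans. Its brightest probe set read 122, 171 and 121 on the BP arrays, against 145, 126 and 146 on the Rag1 arrays. The B6 arrays read 110, 126 and 158. Differences on this probe set were at most 0.11 in size with standard errors of 0.20. A dimmer one read 29.1, 30.8 and 40.4 on the BP arrays, below the 85.1, 56.2 and 67.0 on the Rag1 arrays, with a difference of -0.73 ± 0.28 (limma adjusted p = 0.170). The remaining one ran from 22.6 to 220 within BP tissue. The probe sets of C1galt1 therefore disagreed in direction between BP and Rag1 tissue, as did those of Fut2, St3gal6 and Gcnt3. Part of the spread within BP tissue followed 1 array: replicate 2 was the highest BP array in 12 of the 18 tested probe sets after normalization, where it was so in 37.1% of all tested probe sets. B3gnt7 and B4galt1, lowest on that array, were the exceptions among the genes that were lower in BP tissue.

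**Figure D4:**
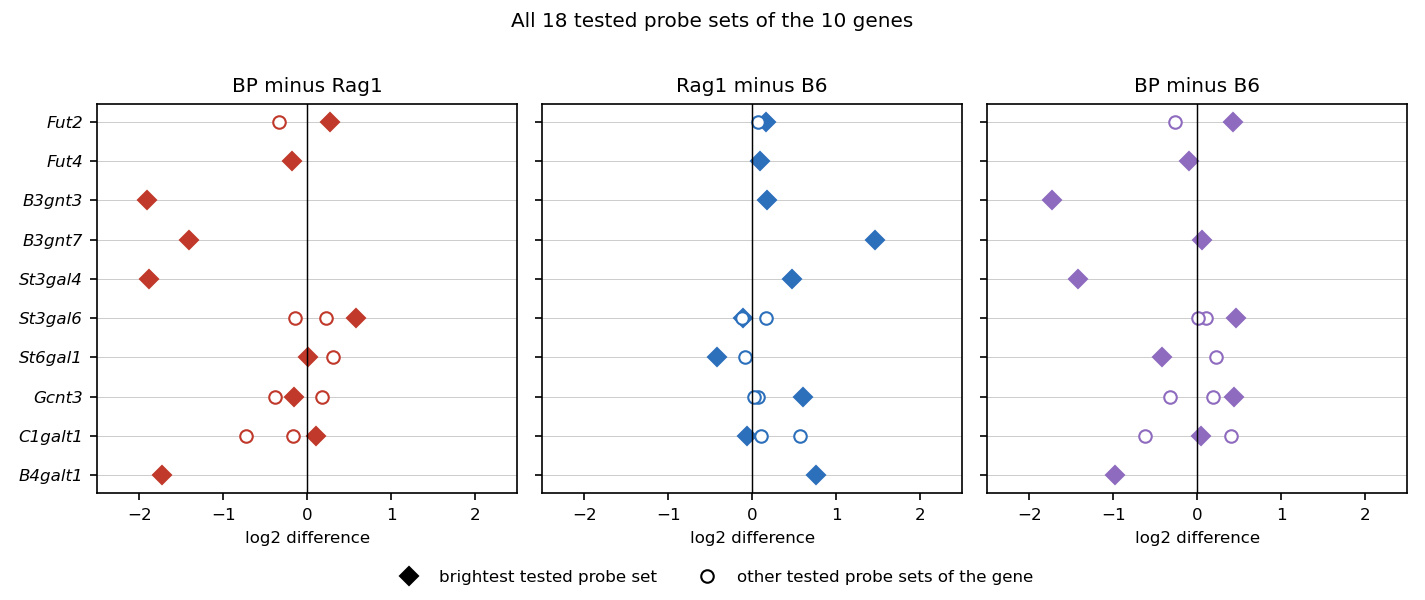
Log2 differences (normalized log2(value + 16) scale) of all 18 tested probe sets of the 10 genes in 3 comparisons, with the brightest tested probe set of each gene as a filled diamond and the others as open circles. Fut2, St3gal6, Gcnt3 and C1galt1 have probe sets on both sides of 0 for BP minus Rag1, while B3gnt3, B3gnt7, St3gal4 and B4galt1 rest on 1 probe set each.

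B3gnt3, B3gnt7, St3gal4 and B4galt1 have a single probe set each on this array, so their values could not be set against another probe set. Over the 9 arrays, B3gnt3 and St3gal4 ran most closely together of the 45 pairs among the 10 genes (Pearson r of normalized log2 values 0.97), then B3gnt7 and B4galt1 (r = 0.81). St3gal6 ran against B3gnt3 (r = -0.60) and St3gal4 (r = -0.58). These are descriptions over arrays that share groups and RNA quality. Among all other named genes, the closest to B3gnt3 were Spred2, Faah and Fkbp4 (r from 0.987 to 0.994 over 9 arrays), the closest to St3gal4 were Spaca9, Tubb4b and Rac1 (0.983 to 0.985), and the closest to B3gnt7 were Ppp1r14d, Cdca4 and Slc29a4 (0.965 to 0.976).

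Other enzymes of the same pathways were called between BP and Rag1 tissue at about the share of all genes. Of 81 further tested genes for fucosylation, sialylation, O-glycan start and core, chain extension and N-glycan branching, 1 rose and 1 fell, where 1.1% of all genes were higher and 2.17% lower. At an unadjusted p under 0.05, 20 of the 81 passed, where 19.1% of all genes did. The median log2 difference of the 81 was 0.038. B3gnt2, another chain-extending enzyme, fell: it read 28.8, 83.1 and 20.1 on the BP arrays, against 111, 99.98 and 118 on the Rag1 arrays (-1.18 ± 0.27, limma adjusted p = 0.0390). Slc35a2, which carries the galactose donor into the Golgi, rose: it read 595, 869 and 663 on the BP arrays, against 300, 312 and 490 on the Rag1 arrays (1.01 ± 0.22, adjusted p = 0.0332). None of the 11 other fucosylation genes, 20 other sialylation genes, 16 O-glycan start and core genes or 12 N-glycan genes passed. Between Rag1 and B6 tissue and between BP and B6 tissue, 0 of the 81 passed in limma. At an unadjusted p under 0.05 there were 7 and 11, where 5.80% and 13.9% of all genes passed.

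The mucins that carry these glycans were lower in BP than in Rag1 tissue in 2 of 6 tested cases, where 2.17% of all genes were lower. Muc2, the gel-forming mucin of goblet cells, read 3205, 3419 and 3588 on the BP arrays, against 5128, 5241 and 5723 on the Rag1 arrays, a difference of -0.53 ± 0.13 (limma adjusted p = 0.0417). Muc13, a membrane mucin of enterocytes, read 5349, 3348 and 4858, against 8955, 9652 and 7970 (-0.92 ± 0.21, adjusted p = 0.0378). Neither passed between Rag1 and B6 tissue, at 0.37 ± 0.13 and 0.43 ± 0.21. Beside these values, 1 of 9 epithelial markers fell in BP tissue, against the same 2.17% of all genes. It was the adhesion molecule Epcam, by 0.47 on the log2 scale (limma adjusted p = 0.0389). Differences above 0 were those of Krt18 (0.39), Krt8 (0.05) and Cdh1 (0.01). The summed goblet cell markers, Muc2 included, were 27346 to 29509 in BP tissue, against 32480 to 38654 in Rag1 tissue. Among them, Atoh1 (0.32) and Tff3 (0.04) had differences above 0. The 5 tested enterocyte markers had 0 calls. Their summed intensity was 30424.3 to 31301.5 in BP tissue, within the 26765.6 to 33306.8 of Rag1 tissue. The 6 macrophage markers had 0 calls and a median difference of 0.57. Of 7 smooth muscle markers, 2 passed the test, Myh11 at -1.51 and Des at -0.69, while 3 others had differences below 0 and 2 above it, Acta2 at 0.35 and Cnn1 at 0.28. Their summed intensity was 8502 to 14060 in BP tissue and 10184 to 12976 in Rag1 tissue, and the parts that epithelial and muscle content play in the glycosyltransferase values were not tested. Interleukin 22 and lymphotoxin signals are known to induce Fut2 in mouse epithelium. Of 11 listed genes of these pathways, 6 were tested: Il22ra1, Il10rb, Il22ra2, Stat3, Ltb and Ltbr. Il23a and Lta were too dim to test, and interleukin 22 itself was not among the tested genes. The 6 had 0 calls by limma in each comparison. At an unadjusted p under 0.05 there were 3, 2 and 2 for BP against Rag1, Rag1 against B6 and BP against B6 tissue. Over all genes, 19.1%, 5.80% and 13.9% passed at that level in the same order.

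**Figure D5:**
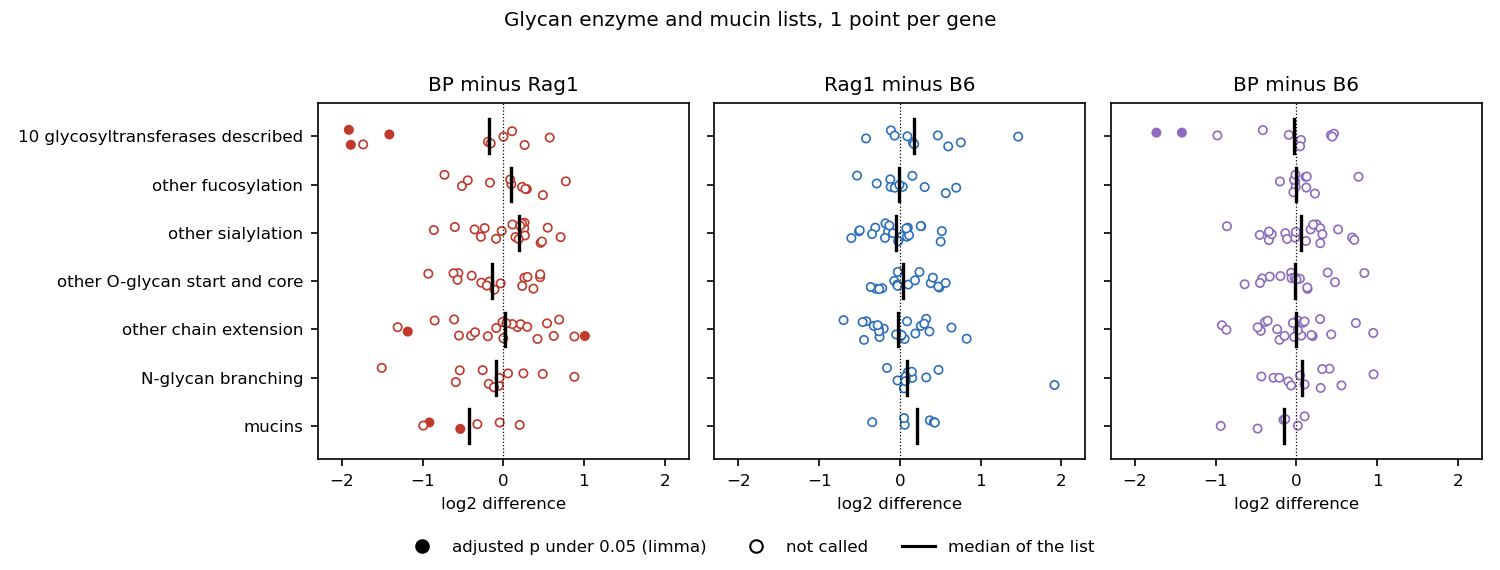
Log2 differences (normalized log2(value + 16) scale) of the 10 glycosyltransferases and of further glycan enzymes and mucins, 1 point per gene by its brightest tested probe set, with a bar at each list's median and filled points for an adjusted p under 0.05 in limma. Between BP and Rag1 tissue the points beyond the lists' bulk on the low side include B3gnt3, St3gal4, B4galt1, B3gnt7 and B3gnt2. Mgat4c (-1.51) and B4galt4 (-1.31), which did not pass, lie there too. Slc35a2 is the 1 filled point above 0.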

How the data were processed

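The deposited values were linear probe set intensities of Affymetrix arrays, from 1 to 21694, made by the authors from biotin-labelled cRNA per the labels' protocols. The software and any scaling are not given in the sources used here. Values were turned to log2(value + 16) and quantile-normalized. The 64 control probe sets and the lowest 40% of the rest by mean over all 9 arrays (a log2 mean of 5.30) were left out, which kept 27022. Genes were named by the platform annotation, with 1 symbol for 34945 probe sets, several for 932 and none here for 9160. Gene IDs were looked up in a RefSeq gene table (GRCm38.p6), which held 34741 of the first and changed 0 symbols. Each of 13570 genes was read through the brightest of its tested probe sets. The files give no detection calls.

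Differences were fitted with limma 3.58.1 in R 4.3.3: 1 mean per group, all 9 arrays (6 residual degrees of freedom), empirical Bayes with an intensity trend, two-sided, Benjamini-Hochberg adjustment over all 27022 probe sets, threshold 0.05. With 3 arrays per group the precision is limited. The fit was also run on simulated data that had the same spread in all groups. The BP arrays spread more than the others, so that run cannot show how the calls behave under unequal spread. Named genes were the 10 members, up to 4 called genes per direction from each other list, 3 genes nearest to each called member, and the array checks. The further glycan, mucin and marker lists were drawn up from general knowledge, and the members and lists were chosen with earlier results of these data known. Alternatives were other scalings, pseudocounts, filters, fits and left-out arrays.

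Replicate numbers were checked for pairing: deviations of same-numbered arrays correlated between -0.19 and 0.23, so the numbers were not taken to pair samples. Figures were drawn with matplotlib 3.10.9.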

Additional observations from a re-analysis of the deposited data

How the results depend on the processing

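Across 21 alternatives, 538 of 627 gene results kept direction and side of the threshold, 32 lost the call, 13 gained it and 44 changed sign, none of the last past the threshold in either fit. Most of these results were not called in the main fit. Only called results could lose a call: 3 for BP minus Rag1, 0 for Rag1 minus B6 and 2 for BP minus B6. B3gnt3 and St3gal4 (BP minus Rag1) were called in 19 of 21 alternatives each, B3gnt7 in 13 and B4galt1 in 6. For BP minus B6, B3gnt3 and St3gal4 were called in 11 of 21 each. The cause of these changes was not tested. Fut2 was too dim for the fit with the lowest 60% left out. The pseudocounts 1 and 64, both filters and the replicate block (799, 74 and 142 probe sets for BP minus Rag1, Rag1 minus B6 and BP minus B6; 2, 0 and 2 members) kept the total counts within 1.5 times, though probe sets higher in BP minus B6 were 9 under the block, against 16. Under the block, which pairs arrays by number only, B3gnt7 had an adjusted p of 0.0528 for BP minus Rag1. The median log2 difference of all tested probe sets was -0.12 for BP minus Rag1 and -0.13 for BP minus B6 with median centring, and 0.12 for Rag1 minus B6 as deposited.

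The 1027, 89 and 171 probe sets called, in the same order, became 183, 338 and 51 in fits of 2 groups, 4023, 1050 and 856 with array weights, 4191, 294 and 3488 with the actin covariate, and 6250, 177 and 3807 without BP and B6 replicates 1 and 3. For BP minus B6 they were 499 with median centring (20 higher and 479 lower, against 16 and 155) and 108 as deposited. BP minus Rag1 split into 298 higher and 729 lower, and 158 and 1054 with median centring, 1815 and 2376 with the covariate. Rag1 minus B6 split into 19 higher and 70 lower, and 521 and 529 with array weights. Members called in Rag1 minus B6 were 1 as deposited, in fits of 2 groups, with array weights and with the covariate, against 0, and in BP minus B6 they were 0 as deposited and in fits of 2 groups, against 2. Leaving out each array gave 18 to 5275, 37 to 347 and 55 to 3029 probe sets and 0 to 4, 0 to 1 and 0 to 2 members; the highest counts were all without BP replicate 2.

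Sign changes, BP minus Rag1: St6gal1 was -0.063 with median centring, -0.039 as deposited, -0.015 with the pseudocount 1, -0.68 with the covariate, -0.48 without BP and B6 replicates 1 and 3, and -0.20 to 0.24 leaving out single arrays. C1galt1 was -0.047, -0.024 and -0.0066 with median centring, as deposited and with the covariate, and -0.26 averaged over probe sets. Fut4 was 0.15 and 0.14, and Gcnt3 0.037 and 0.079, with the covariate and without those 4 arrays. Fut2 was -0.038 averaged over probe sets. Rag1 minus B6: C1galt1 was 0.083 as deposited, 0.034 without the 4 arrays, 0.20 averaged and -0.13 to 0.049 leaving out single arrays. B3gnt3 was -0.089 with the covariate, -0.53 without the 4 arrays and -0.054 to 0.53 leaving out single arrays. Fut4 was -0.018 with the covariate. Fut2 was -0.048 without the 4 arrays and -0.024 to 0.33 leaving out single arrays, and St3gal6 0.089 and -0.44 to 0.17. BP minus B6: B3gnt7 was -0.022 with median centring, -0.25 with the covariate, -0.88 without the 4 arrays and -0.26 to 0.37 leaving out single arrays. C1galt1 was -0.089 with median centring, -0.032 with the covariate, -0.059 averaged and -0.018 to 0.16 leaving out single arrays. Fut4 was 0.0034 as deposited, 0.14 with the covariate, 0.31 without the 4 arrays, 0.10 averaged and -0.26 to 0.046 leaving out single arrays.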
